A study of Mus musculus with 14 samples.

Results

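The NF-kB subunits and their IkB regulators are 10 genes here: Rel, Rela, Relb, Nfkb1 and Nfkb2, which encode the subunits, Nfkbia and Nfkbie, which encode cytoplasmic inhibitors, and Bcl3, Nfkbid and Nfkbiz, which encode the atypical, mostly nuclear IkB proteins. Members were chosen by name, with earlier results of these data known, and all 10 were found among the 39721 gene entries of the authors' table. Rel is listed in a joint entry with Gm20645 and Nfkbie in a joint entry with Slc35b2, so the values of both include any signal of the partner. Nfkb2 had 2 entries, and the one with the higher mean is used. Polyadenylated RNA was sequenced from bone marrow-derived macrophages of C57Bl6/J mice, males of 6 to 12 weeks, cultured with L929-conditioned medium to supply the growth factor CSF-1. The study gave one stimulus after another to ask how the first alters the response to the next. A first stimulus of PBS or of 100 ng/mL Poly I:C lasted 24 h, and after washing PBS or LPS followed for 2 h or 6 h, at an LPS dose that is not stated for this step. Poly I:C mimics viral double-stranded RNA and acts through TLR3, whereas LPS, from the outer membrane of bacteria, acts through TLR4. No genetic change is stated for any group. The 8 groups were PBS then PBS, PBS then LPS, Poly I:C then PBS and Poly I:C then LPS, each at 2 h and 6 h. Below they are called the control, LPS alone, Poly I:C alone and both stimuli. Each had 2 libraries except PBS then PBS, with 1 library at each time, so differences from those controls rest on 1 control library. Whether replicates are separate mice or cultures is not stated, so p-values cover only the variation among these libraries, possibly technical.

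As background, NF-kB subunits pair into dimers that inhibitory IkB proteins hold in the cytoplasm. TLR signals activate the IkB kinase complex, IkB proteins are phosphorylated and degraded, and the freed dimers enter the nucleus and bind kappaB sites in DNA. Nfkb1 and Nfkb2 encode precursors that are processed into the DNA-binding subunits p50 and p52. Several genes of the system are themselves NF-kB targets in macrophages, among them Nfkbia, whose new protein ends the nuclear phase. The atypical IkB proteins bind p50 or p52 dimers in the nucleus and can raise or lower transcription of chosen genes. Levels below are transcript levels in FPKM, fragments scaled by transcript length and library size, which can be compared between genes. Differences are on the log2(FPKM + 1) scale with their standard error (SE) from limma, and a gene was called where the p-value adjusted over all 11977 tested entries was under 0.05.

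Replicates of a group correlated across tested entries at r = 0.974 to 0.988, genes not being independent replicates. The replicates of LPS alone at 2 h differed over 1.5-fold in 17.5% of tested entries, Relb and Bcl3 among them, against 3.41% to 7.81% in the 5 other pairs. Absolute depth is unknown because the table holds no counts. The value of 1 fragment, read from the spacing of low values, differed up to 3.07-fold between libraries. The macrophage markers Csf1r, Cd68, Itgam, Lyz2, Fcgr1 and Mertk were all found, and Adgre1, listed as Emr1, stood at 137 to 671 FPKM in the 14 libraries. The summed T cell markers never exceeded 0.0968 FPKM, with 2 of 3 at 0 in every library, and those of B cells, neutrophils and dendritic cells each summed to at most 1.88 FPKM in any library. The 4 stromal markers summed to 13.5 to 18.5 FPKM in the 2 h libraries given PBS first and to 39.2 to 102 in those given Poly I:C first, and at 6 h to 16.7 to 55.3 and 20.8 to 48.2. The 6 macrophage markers summed to 13203 to 18362 FPKM after PBS first and 3889.9 to 7295 after Poly I:C first, most of it Lyz2, a lysozyme gene, at 10930.4 to 16240.4 and 2408 to 4397 FPKM. The 6 did not all move alike. With Poly I:C alone at 2 h, 1 was called higher and 3 lower than the control, beside 47.3% of entries in either direction. Fcgr1 stood at 550 and 566 FPKM there against 35.2 in the control. With both stimuli against LPS alone, 3 were higher and 3 lower at 2 h, beside 61.1% of entries. At 6 h 0 were higher and 5 lower, beside 49.6%. The part of these marker differences in the results below was not tested. In bulk RNA, fewer cells of a type and less RNA per cell cannot be told apart.

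Promoter sequences are shown because NF-kB proteins bind kappaB sites and several members moved together. RefSeq promoter entries (build GRCm38.p6) matched 7 of the 10 members, with 11 start sites among them, and 250 bases before each start were searched on both strands. Entries were not matched for Relb, Nfkb1 and Nfkbiz. The kappaB consensus occurred in 9 of the 11 windows, against 23.2% of 32851 promoters counted singly. All 7 matched members had it in at least 1 window, a count by gene for which no like share is given. The windows without it belonged to Nfkbid, where only 1 of its 3 starts held matches. A stricter motif, GGG followed by any 3 bases and TTCC, occurred in 7 of the 11 windows, belonging to Rel, Nfkb2, Nfkbia, Nfkbie and Nfkbid, against 4.65% of promoters. The motifs overlap, since every match of the stricter one is also a kappaB consensus match. Sequences below run 5′ to 3′ on the gene's strand, and capitals mark kappaB consensus matches on either strand, merged where they overlap. The whole window is given for Nfkbia at chr12:55492648-55492897 (minus strand), with 1 match, and for the internal start of Nfkbid at chr7:30422156-30422405 (plus strand), with 3. Matches of the other genes are given with their flanks only, 30 bases each, with 3 of the 5 Nfkb2 stretches shown. The Nfkb2 windows lay largely in annotated exons of Nfkb2 or AC114539.1, with 250, 167 and 234 of 250 bases exonic. The last 2 of these windows overlap. Exonic bases numbered 58 in the window of Rela, 15 in that of Bcl3 and 1 in that of Rel. The capitals that open the middle Nfkb2 line end the match of the line before it.
Nfkbia: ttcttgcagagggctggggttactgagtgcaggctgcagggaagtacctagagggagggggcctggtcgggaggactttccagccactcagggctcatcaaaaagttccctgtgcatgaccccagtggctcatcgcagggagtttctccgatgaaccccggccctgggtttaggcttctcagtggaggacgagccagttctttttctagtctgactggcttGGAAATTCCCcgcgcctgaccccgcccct
Nfkbid: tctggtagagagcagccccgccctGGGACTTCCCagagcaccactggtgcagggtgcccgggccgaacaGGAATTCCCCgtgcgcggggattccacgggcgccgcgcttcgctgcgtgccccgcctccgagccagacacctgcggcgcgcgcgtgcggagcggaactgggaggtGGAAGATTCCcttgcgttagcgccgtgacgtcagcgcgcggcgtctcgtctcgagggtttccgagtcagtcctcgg
Rel, chr11:23771042-23771071, minus strand: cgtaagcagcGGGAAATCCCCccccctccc
Nfkb2, chr19:46304688-46304717, plus strand: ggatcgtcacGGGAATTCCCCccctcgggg
Nfkb2, chr19:46304707-46304736, plus strand: CCccctcggggggccgaaaGGGGCTTTCCC
Nfkb2, chr19:46305695-46305724, plus strand: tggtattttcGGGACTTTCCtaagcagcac
Nfkbie, chr17:45555584-45555613, plus strand: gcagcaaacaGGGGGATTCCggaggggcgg
Bcl3, chr7:19822821-19822850, minus strand: tggggcggacGGGTGGCCCCgggggcccgg
Rela, chr19:5637313-5637342, plus strand: cagcaggcctGGGCCTCTCCctgcgcaggg
The Nfkbia match began 29 bases before the start and the nearest Nfkb2 match 11 bases before it. The Bcl3 and Rela matches fitted the looser consensus but not the stricter motif. A match is a description of the letters, not evidence of binding, and binding was not measured here.

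Rela (chr19:5637483-5648130 in GRCm38, plus strand) encodes p65, the activating subunit of the most common dimer. At 2 h its level was 31.2 FPKM after PBS then PBS, 67.4 and 56.1 after PBS then LPS, 65.5 and 63.2 after Poly I:C then PBS, and 118 and 134 after Poly I:C then LPS. LPS alone and Poly I:C alone gave overlapping levels, and both libraries with both stimuli lay above all others. By 6 h the same groups read 21.5, then 29.0 and 35.8, then 35.4 and 33.0, then 75.9 and 71.7 FPKM, again with both stimuli highest and the single stimuli overlapping.

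Rel (entry at chr11:23736847-23771036, minus strand) encodes c-Rel, an activating subunit abundant in blood cells. Its 2 h levels were 5.15 FPKM in the control, 19.7 and 28.5 with LPS alone, 13.7 and 10.2 with Poly I:C alone and 79.8 and 80.9 with Poly I:C then LPS. No pair of these groups overlapped, and both stimuli stood far above the rest. The 6 h values were lower throughout, at 3.53 for the control, 13.5 and 17.3 for LPS alone, 4.89 and 3.78 for Poly I:C alone and 35.4 and 31.3 FPKM for both stimuli. Only Poly I:C alone came close to the control at that time.

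Relb (chr7:19606217-19629438, minus strand) encodes a subunit that pairs mainly with p52 and its precursor. It stood at 18.7 FPKM in the 2 h control, 102 and 66.8 after LPS alone, 63.9 and 59.8 after Poly I:C alone and 113 and 127 after both. The LPS-alone replicates lay apart, and the lower of them was near the level of Poly I:C alone. At 6 h the values were 9.63, 29.0 and 31.7, 19.5 and 14.4 and 80.0 and 76.5 FPKM in the same order of groups, with no overlap.

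Nfkb1 (chr3:135584655-135691547, minus strand) encodes the p50 precursor. At 2 h it was at 51.5 FPKM in the control, 219 and 202 after LPS alone, 40.6 and 37.3 after Poly I:C alone and 194 and 219 after both. The groups given LPS overlapped each other, and Poly I:C alone lay below the control. At 6 h it stood at 29.2 in the control, 121 and 144 with LPS alone, 21.0 and 20.0 with Poly I:C alone and 177 and 168 FPKM with both, now without overlap. The locus also holds Gm43430 on the same strand, whose reads may be counted here.

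Nfkb2 (entry at chr19:46303591-46327156, plus strand) encodes the p52 precursor, which also acts as an IkB. Its 2 h levels ran from 30.3 FPKM in the control through 96.4 and 77.9 with Poly I:C alone and 205 and 154 with LPS alone to 330.4 and 365 with both. These groups did not overlap. At 6 h the control was at 20.4, Poly I:C alone at 26.9 and 20.3, overlapping it, LPS alone at 112 and 132 and both stimuli at 397 and 369 FPKM. Nfkb2 was the one member with its highest group mean at 6 h, although the 2 h and 6 h groups with both stimuli lay close. Psd and AC114539.1 overlap its locus on the opposite strand, and whether counting used strand is not stated.

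Nfkbia (chr12:55489411-55492647, minus strand) encodes IkB-alpha, the main rapid inhibitor. At 2 h it stood at 52.4 FPKM in the control, 1086 and 912 after LPS alone, 415 and 127 after Poly I:C alone and 1279 and 1279 after both. It was the highest member in all 8 groups by mean. The 2 h replicates of Poly I:C alone differed 3.27-fold, the widest gap of any member in any group. At 6 h the control was at 44.3, LPS alone at 510.5 and 554, Poly I:C alone at 79.6 and 50.1 and both at 841 and 777 FPKM, with no overlap.

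Nfkbie (joint entry with Slc35b2, chr17:45555669-45573323, plus strand) encodes IkB-epsilon, a slower inhibitor. The assembled locus also spans Hsp90ab1. Control cells at 2 h had 27.8 FPKM, LPS alone 153 and 123, Poly I:C alone 156 and 105 and both stimuli 330.1 and 364. Each single stimulus overlapped the other, and the libraries with both stimuli lay above them. The 6 h levels were 25.8 in the control, 57.1 and 72.4 with LPS alone, 29.0 and 25.0 with Poly I:C alone, which spanned the control, and 209 and 201 FPKM with both.

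Bcl3 (entry at chr7:19808341-19822770, minus strand) encodes a nuclear IkB protein that binds p50 and p52 dimers. Its 2 h levels were 16.2 FPKM in the control, 146 and 91.0 after LPS alone, 42.9 and 32.9 after Poly I:C alone and 49.3 and 56.8 after both. It was the one member whose 2 h libraries with both stimuli each lay below each LPS-alone library. By 6 h LPS alone at 78.9 and 101 and both stimuli at 96.9 and 77.4 FPKM overlapped, and the control at 5.79 lay within Poly I:C alone at 5.24 and 5.98. The antisense genes Gm16174 and Gm16175 overlap this locus.

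Nfkbid (entry at chr7:30417704-30428853, plus strand, a locus that also spans Hcst) encodes the nuclear protein IkB-NS. It read 15.9 FPKM in the 2 h control, 64.9 and 61.9 after LPS alone, 21.2 and 7.72 after Poly I:C alone, which spanned the control, and 86.3 and 87.9 after both. At 6 h all values were at most 20.1 FPKM, with 9.21 in the control, 13.8 and 20.1 with LPS alone, 5.06 and 3.13 with Poly I:C alone and 16.7 and 14.8 with both, the LPS groups overlapping.

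Nfkbiz (chr16:55811375-55838899, minus strand) encodes IkB-zeta, which is needed for transcription of some secondary response genes such as Il6 and Lcn2. It was the lowest member in both controls, at 3.45 FPKM at 2 h and 2.12 at 6 h. At 2 h it stood at 110.4 and 157 FPKM after LPS alone, 29.4 and 12.0 after Poly I:C alone and 581 and 563 after both, which placed it next to Nfkbia as the highest by mean in that group. At 6 h LPS alone gave 71.9 and 76.4, Poly I:C alone 7.20 and 5.72 and both 147 and 124 FPKM, with no overlap between groups.

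**Figure D1:**
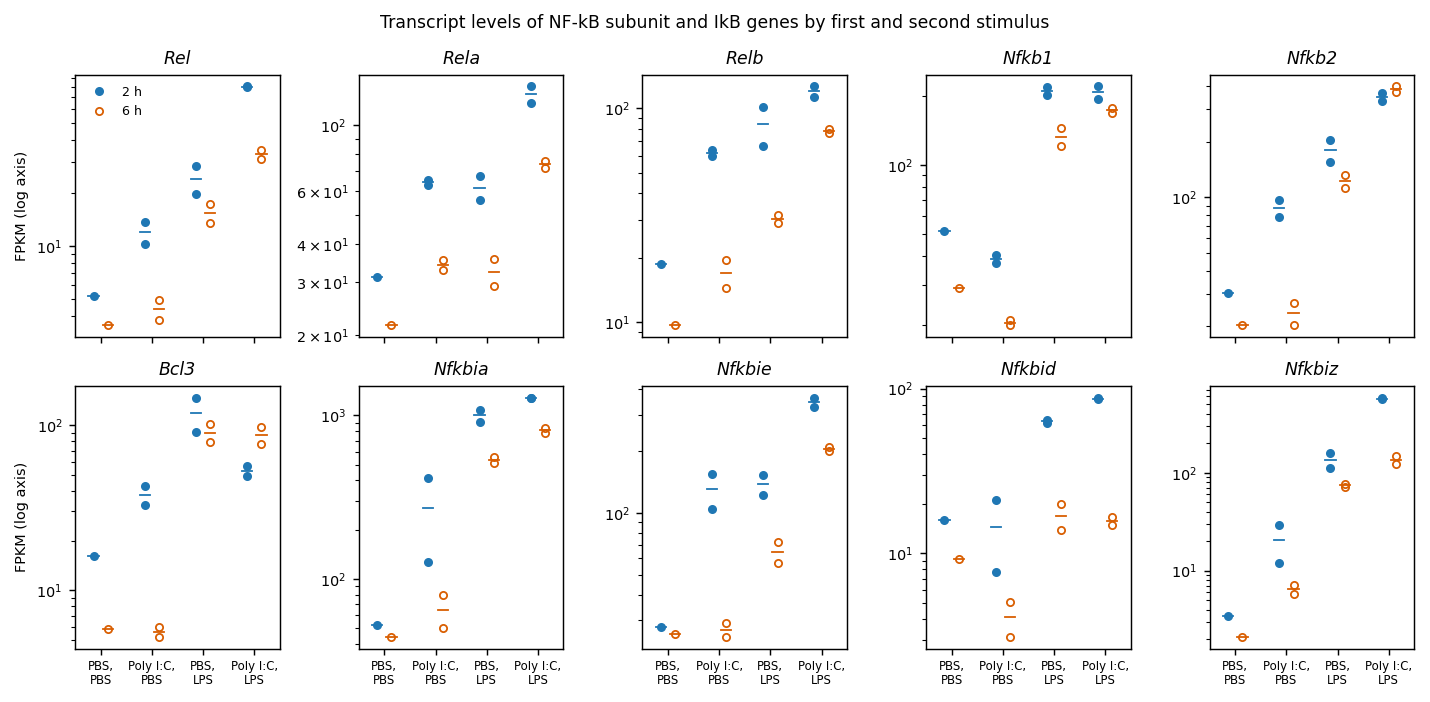
Transcript level (FPKM, log axis) of the 10 genes by first and second stimulus, with 1 point per library and a bar at the group mean, filled at 2 h and open at 6 h. Both Nfkbiz libraries of Poly I:C then LPS at 2 h, 581 and 563 FPKM, lie above all others, whereas those of Bcl3 lie below PBS then LPS.

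LPS without earlier Poly I:C was compared with the PBS control to give the response of naive cells. At 2 h all 10 members were called higher, while 9.47% of the 11977 tested entries were, and 15.9% were called in either direction. The median log2 difference was 2.17 over the members and 0.04 over all tested entries. The largest was that of Nfkbiz (4.90 ± 0.39, adjusted p = 2.02e-05), followed by Nfkbia (4.22 ± 0.52, adjusted p = 3.53e-04). Bcl3 rose by 2.76 ± 0.28 and Rela least, by 0.96 ± 0.16, adjusted p = 0.00295. At 6 h 9 members were called higher, against 22.9% of entries called higher and 43.4% in either direction, and their sizes ran from 0.56 ± 0.16 for Rela to 4.59 ± 0.39 for Nfkbiz. Nfkbid was at 0.79 ± 0.44 (adjusted p = 0.180) at that time. The Nfkbid call at 2 h was lost with no filter on low values (adjusted p = 0.0552) and with the 2 h libraries alone (adjusted p = 0.0649). The Rela call at 6 h was lost without replicate 2 of PBS then LPS (adjusted p = 0.101) and with both controls as 1 group (0.30, adjusted p = 0.169).

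Poly I:C alone, 24 h earlier and washed away, was compared with the same PBS controls as LPS alone. At 2 h after the change of medium 8 members were higher and 1 lower, against 47.3% of entries called in either direction. Nfkbie (2.16 ± 0.24, adjusted p = 4.47e-05), Nfkbiz (2.16 ± 0.39, adjusted p = 0.00127) and Nfkbia (2.11 ± 0.52, adjusted p = 0.00741) had the highest values. Without replicate 1 of Poly I:C alone that of Nfkbia was 1.26 and that of Nfkbiz 1.55, both below the value of Relb. Relb rose by 1.67 ± 0.23, Nfkb2 by 1.48 ± 0.22, Bcl3 by 1.17 ± 0.28, Rel by 1.06 ± 0.25 and Rela by 1.02 ± 0.16. Nfkb1 was called lower (-0.40 ± 0.15, adjusted p = 0.0462), but the call was lost without replicate 1 of the Poly I:C group (adjusted p = 0.0719), without replicate 2 (adjusted p = 0.166) and when both controls served as 1 group (0.0040, adjusted p = 0.991). It was also lost with no filter (adjusted p = 0.0519), with no intensity trend (adjusted p = 0.0700) and with the 2 h libraries alone (adjusted p = 0.0935). With both controls as 1 group Bcl3 was at 1.84, adjusted p = 0.00106. Nfkbid was at -0.28 ± 0.44 (adjusted p = 0.641), and without replicate 1 of that group it was called lower (-0.95, adjusted p = 0.0328). The replicates differed over 1.5-fold in 3 members, Nfkbia, Nfkbid and Nfkbiz, against 4.33% of tested entries. At 6 h 3 members were higher and 1 lower, against 34.5% of entries, namely Rela (0.64 ± 0.16, adjusted p = 0.0131), Relb (0.74 ± 0.23, adjusted p = 0.0342), Nfkbiz (1.25 ± 0.39, adjusted p = 0.0324) and, lower, Nfkb1 (-0.49 ± 0.15, adjusted p = 0.0264). All 4 were lost without replicate 1 of that 6 h group (adjusted p = 0.0514, 0.145, 0.112 and 0.0538). Without replicate 2, Nfkbiz (adjusted p = 0.0583) and Nfkb1 (adjusted p = 0.0887) were lost, and with no filter Relb (adjusted p = 0.0819) and Nfkbiz (adjusted p = 0.0969). With both controls as 1 group Rela (0.38, adjusted p = 0.0995) and Relb (0.29, adjusted p = 0.405) did not pass, and Nfkb1 was at -0.89, adjusted p = 0.00533. Nfkbid, at -1.03 ± 0.44, adjusted p = 0.0989, was called lower with both controls as 1 group (-1.39, adjusted p = 0.0116) and with the 6 h libraries alone (adjusted p = 0.0383).

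LPS after Poly I:C was compared with Poly I:C alone, using the same Poly I:C libraries as the comparison before. At 2 h 9 members were higher, against 14% of entries called higher and 22.8% in either direction, from 0.94 ± 0.19 for Relb to 4.85 ± 0.32 for Nfkbiz. Nfkbia rose by 2.47 ± 0.42, and by 1.62, adjusted p = 0.00278, without replicate 2 of Poly I:C alone. Bcl3 was the exception (0.48 ± 0.23, adjusted p = 0.164), with both stimuli at 49.3 and 56.8 FPKM above Poly I:C alone at 42.9 and 32.9. At 6 h all 10 were higher, against 21.7% of entries called higher and 43.9% in either direction, from 1.09 ± 0.13 for Rela to 4.19 ± 0.32 for Nfkbiz, and Bcl3 was among them (3.73 ± 0.23, adjusted p = 7.48e-07).

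**Figure D2:**
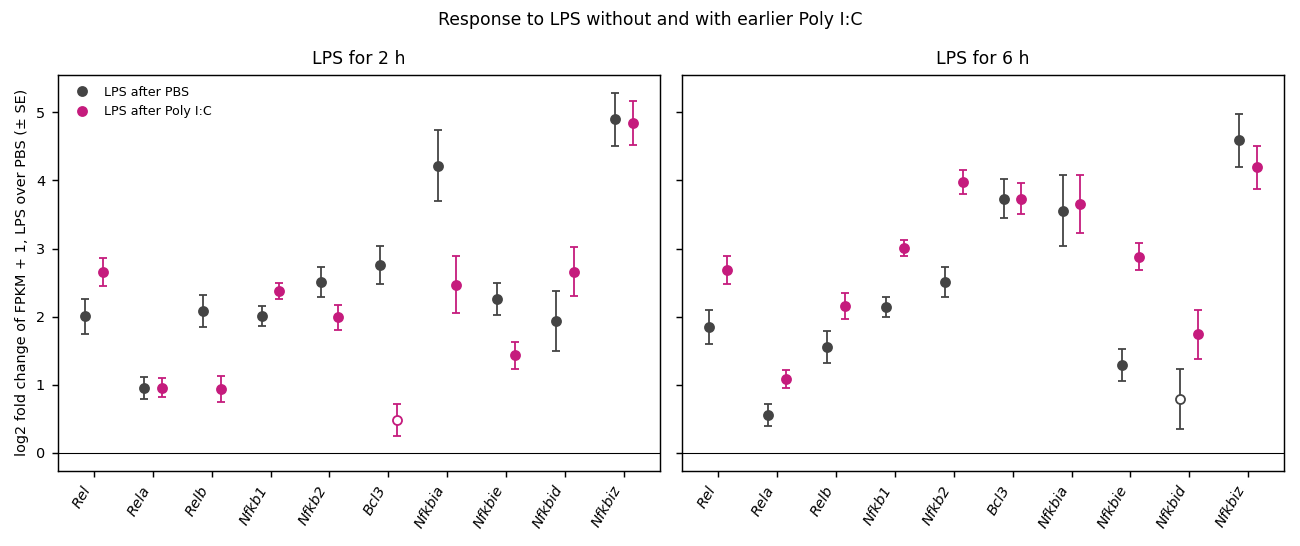
Log2 difference of FPKM + 1 between LPS and PBS (± SE from limma) for each gene, after PBS in grey and after Poly I:C in pink, at 2 h on the left and 6 h on the right. Filled points were called, open points were not, and Bcl3 at 2 h stood at 2.76 after PBS and 0.48 after Poly I:C.

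The difference between these responses was tested as an interaction, which uses the 1 control library of each time. At 2 h only Bcl3 passed among the members, against 1.77% of entries called lower and 4.29% in either direction, with an LPS response smaller after Poly I:C (-2.28 ± 0.36, adjusted p = 0.00642). It was called without each replicate in turn but not when the 2 h libraries were fitted alone (adjusted p = 0.0608). Relb was at -1.14 ± 0.30, adjusted p = 0.0707, and it passed without replicate 2 of PBS then LPS (-1.44, adjusted p = 0.00635) and with both controls as 1 group (-1.58, adjusted p = 0.0310). Nfkbia was at -1.75 ± 0.67, adjusted p = 0.231, and it passed without replicate 2 of Poly I:C then PBS (-2.60, adjusted p = 0.00472), the lower of its 2 replicates, whereas without replicate 1 it was at -0.90, adjusted p = 0.288. At 6 h 3 members passed, all with a larger response after Poly I:C, against 12.7% of entries called higher and 29.4% in either direction, the latter share close to that of the members. They were Nfkbie (1.59 ± 0.31, adjusted p = 0.00331), Nfkb2 (1.46 ± 0.28, adjusted p = 0.00361) and Nfkb1 (0.87 ± 0.19, adjusted p = 0.00627), and all 3 were called without each replicate in turn. Rel, at 0.84 ± 0.32, adjusted p = 0.0764, and Rela, at 0.53 ± 0.21, adjusted p = 0.0896, passed with both controls as 1 group (adjusted p = 0.0224 and 0.0302).

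Levels after Poly I:C then LPS were then set against LPS alone, with 2 libraries a group and the same LPS-alone libraries as above. At 2 h 6 members were higher and 1 lower, against 61.1% of entries called in either direction, a share near that of the members. In higher calls alone, all tested entries had 3905 of 11977. Nfkbiz (2.11 ± 0.32, adjusted p = 2.48e-04), Rel (1.72 ± 0.20, adjusted p = 4.67e-05) and Nfkbie (1.33 ± 0.19, adjusted p = 1.86e-04) were the most raised. Rela rose by 1.02 ± 0.13 and Nfkb2 by 0.96 ± 0.18. Relb was called higher at 0.53 ± 0.19, adjusted p = 0.0332, but not with median-of-ratios scaling (0.47, adjusted p = 0.0505), no filter (adjusted p = 0.0765) or the 2 h libraries alone (adjusted p = 0.0709), nor without either replicate of Poly I:C then LPS (adjusted p = 0.0640 and 0.151) or replicate 2 of PBS then LPS (0.24, adjusted p = 0.232). Without replicate 1 of PBS then LPS it was at 0.83, adjusted p = 0.00210. Bcl3 was the member called lower (-1.11 ± 0.23, adjusted p = 0.00185). Nfkb1 (-0.03 ± 0.12, adjusted p = 0.856), Nfkbia (0.36 ± 0.42, adjusted p = 0.481) and Nfkbid (0.45 ± 0.36, adjusted p = 0.298) did not pass. The SE of a gene comes from its spread in all groups. That of Nfkbia and Nfkbid thus includes Poly I:C alone at 2 h (415 and 127, and 21.2 and 7.72 FPKM), which is not compared here. Every Nfkbia and Nfkbid library with both stimuli lay above every library of LPS alone. How many of all tested entries separate in this way was not counted.

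At 6 h 7 members were higher and none lower, against 23.7% of entries called higher and 49.6% in either direction. The 3 that did not pass in this limma fit were Bcl3 (-0.04 ± 0.23, adjusted p = 0.891), Nfkbia (0.60 ± 0.42, adjusted p = 0.267) and Nfkbid (-0.08 ± 0.36, adjusted p = 0.879). For Nfkbia the SE again includes the pair of Poly I:C alone at 2 h (415 and 127 FPKM), which is not in this comparison. The groups compared stood at 841 and 777 against 510.5 and 554 FPKM. Nfkb2 (1.65 ± 0.18, adjusted p = 4.42e-05) and Nfkbie (1.65 ± 0.19, adjusted p = 6.89e-05) rose most, and Relb (1.34 ± 0.19), Rela (1.17 ± 0.13) and Rel (1.07 ± 0.20) followed. Nfkbiz rose by 0.85 ± 0.32, adjusted p = 0.0483, a call lost without any one of the 4 libraries, with adjusted p up to 0.198 without replicate 1 of both stimuli, and with the replicate number as a block (adjusted p = 0.0524). That call was also lost with a pseudocount of 0.1 (adjusted p = 0.0549), no filter (adjusted p = 0.132) or no intensity trend (adjusted p = 0.0553). Nfkb1 rose by 0.38 ± 0.12, adjusted p = 0.0216, a call lost without replicate 1 of LPS alone (0.26, adjusted p = 0.165), and without replicate 1 (adjusted p = 0.115) or replicate 2 (adjusted p = 0.0611) of both stimuli.

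**Figure D3:**
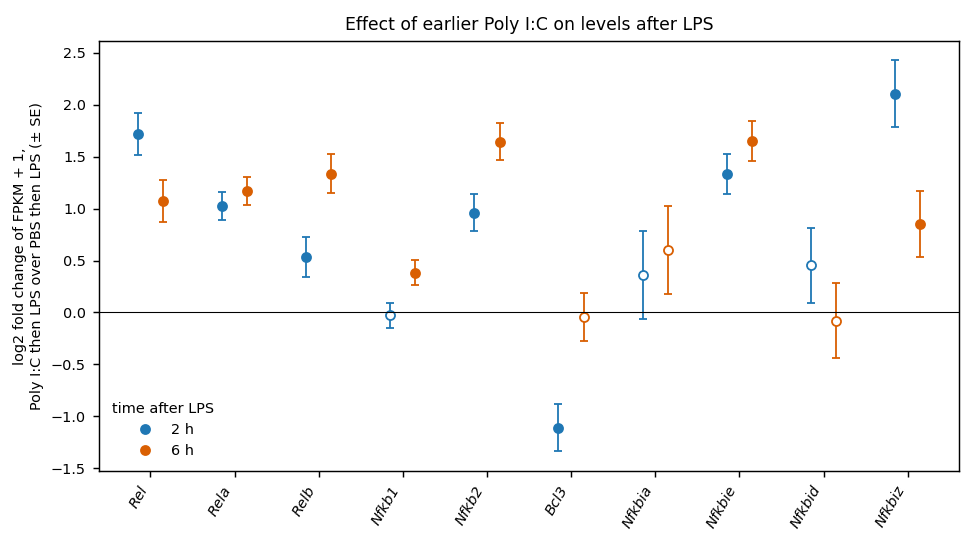
Log2 difference of FPKM + 1 between Poly I:C then LPS and PBS then LPS (± SE from limma) for each gene at 2 h and 6 h, filled where called. Bcl3 lies below 0 at 2 h (-1.11) and near 0 at 6 h (-0.04), and Nfkbiz falls from 2.11 to 0.85.

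The change of that effect between 2 h and 6 h passed in 3 members, a smaller share than the 44.4% of all tested entries. The effect of earlier Poly I:C was larger at 6 h for Relb (0.80 ± 0.27, adjusted p = 0.0350) and moved upwards for Bcl3 (1.07 ± 0.32, adjusted p = 0.0224), and it was smaller at 6 h for Nfkbiz (-1.26 ± 0.45, adjusted p = 0.0454). None of the 3 passed with no filter on low values (adjusted p = 0.0827, 0.0655 and 0.124 in limma), where more entries are tested. Nfkbiz was also lost with a pseudocount of 0.1 (adjusted p = 0.0553), no intensity trend (adjusted p = 0.0520) or median-of-ratios scaling (adjusted p = 0.0548), and with that scaling Nfkb1 (adjusted p = 0.0399) and Nfkb2 (adjusted p = 0.0344) passed. Without replicate 1 of PBS then LPS at 2 h the adjusted p were 0.0787, 0.0580 and 0.135. Without replicate 2 of that group all 3 passed together with Rel (-0.90, adjusted p = 0.0218), Nfkb1 (0.47, adjusted p = 0.0421) and Nfkb2 (0.89, adjusted p = 0.0145). Leaving out any one of the other 6 libraries left at most 2 members called.

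Time after the second stimulus was compared within groups. After LPS alone 7 members were lower at 6 h than at 2 h and none higher, against 26% of entries lower and 49.4% in either direction, with Nfkbid changing most (-1.86 ± 0.36, adjusted p = 0.00169) and Relb next (-1.41 ± 0.19). Bcl3 (-0.37 ± 0.23, adjusted p = 0.212), Nfkbia (-0.90 ± 0.42, adjusted p = 0.103) and Nfkbiz (-0.82 ± 0.32, adjusted p = 0.0554) did not pass. Here too the SE of Nfkbia and Nfkbiz includes their widely spaced pairs of Poly I:C alone at 2 h. Without replicate 1 of LPS alone at 6 h the calls of Rel (adjusted p = 0.200) and Nfkb2 (adjusted p = 0.167) were lost, as both were with no filter (adjusted p = 0.0782 and 0.0701). Of the 2 h libraries, leaving out replicate 1 lost Nfkb2 (adjusted p = 0.170) and gained Nfkbiz (adjusted p = 0.0488), and leaving out replicate 2 lost Rel (adjusted p = 0.196) and gained Bcl3 (adjusted p = 0.0212). After Poly I:C then LPS 6 were lower and 1 higher, against 40% of entries in either direction, with Nfkbid (-2.39 ± 0.36) and Nfkbiz (-2.08 ± 0.32) falling most. The higher one was Bcl3 (0.70 ± 0.23, adjusted p = 0.0336). The calls of Bcl3 and Relb were lost without any one of the 4 libraries, with adjusted p from 0.0535 to 0.195 for Bcl3 and from 0.0671 to 0.141 for Relb, and both with no filter (adjusted p = 0.0904 and 0.0719). The Nfkbie call was lost without replicate 2 at 2 h (adjusted p = 0.0685) or at 6 h (adjusted p = 0.0625). Nfkb2 was at 0.14 ± 0.18 (adjusted p = 0.569) there. After Poly I:C then PBS all 10 were lower at 6 h, against 18% of entries lower and 30.4% in either direction, from -0.89 ± 0.12 for Nfkb1 to -2.55 ± 0.23 for Bcl3. Without replicate 2 of the 6 h group, Nfkbia (adjusted p = 0.0806), Nfkbid (0.0980) and Nfkbiz (0.0645) did not pass, nor did Nfkbid without replicate 1 of the 2 h group (adjusted p = 0.0639). Without that 2 h library Nfkbia was at -0.99, adjusted p = 0.0262, and Nfkbiz at -0.81, adjusted p = 0.0361. In the PBS control all 10 members had lower values in the 6 h library than in the 2 h one, as did 51.4% of tested entries. The differences ran from -0.10 for Nfkbie to -1.34 for Bcl3, with a median of -0.53 against -0.01 over all tested entries. Whether the falls within the stimulated groups differ from that in the control was not tested. The comparison of the controls, added after the data were seen, sets 1 library against 1 with the spread taken from the other groups. It called Nfkb1 lower (-0.80 ± 0.17, adjusted p = 0.0496), against 1.33% of entries lower and 1.59% in either direction. That call was lost with median-of-ratios scaling (adjusted p = 0.0514) and with no intensity trend (adjusted p = 0.0760). Bcl3 was at -1.34 ± 0.32, adjusted p = 0.0809.

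The makeup of the subunit transcripts was described as each subunit's share of the summed FPKM of the 5 subunit genes. The sum was 137 FPKM in the 2 h control, 559.8 ± 73.6 (mean ± SD, n = 2) after LPS alone, 264 ± 22.5 after Poly I:C alone and 881 ± 63.6 after both. Nfkb1 held 37.6% in the control and 37.8 ± 2.87% after LPS alone, but 14.8 ± 0.376% after Poly I:C alone and 23.4 ± 0.367% after both. Its share was thus lower in each 2 h library given Poly I:C than in any given PBS first. Nfkb2 held 36.7 ± 0.152% at 6 h of LPS alone and 51.7 ± 0.305% at 6 h of both stimuli, its highest share. Rel held 9.15 ± 0.577% at 2 h of both stimuli and group means of 3.76% to 4.61% in the 7 other groups. Rela held its largest share, 34.4 ± 2.25%, 6 h into Poly I:C then PBS. The summed FPKM of Nfkbia and Nfkbie relative to that of the subunits was 0.586 in the 2 h control, 2.03 ± 0.00879 after LPS alone, 1.49 ± 0.781 after Poly I:C alone and 1.85 ± 0.106 after both. At 6 h that ratio was 0.831 in the control, 1.80 ± 0.0912 after LPS alone, 0.915 ± 0.133 after Poly I:C alone and 1.37 ± 0.00439 after both. These are ratios of transcripts, include Slc35b2, leave out Nfkbib, which encodes IkB-beta, and carry no test.

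**Figure D4:**
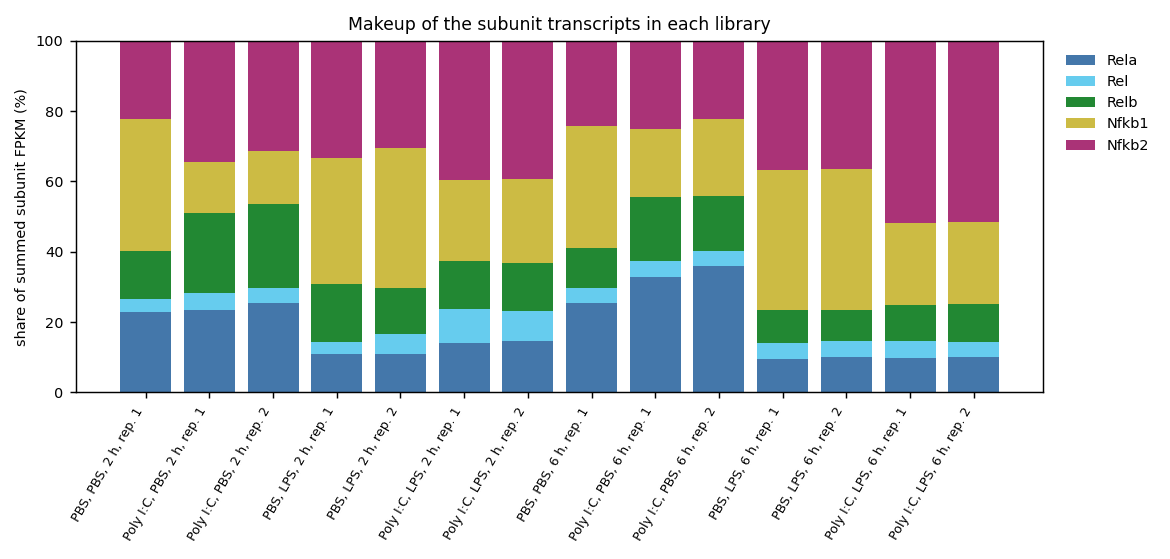
Share (%) of the summed FPKM of the 5 subunit genes held by each gene in each of the 14 libraries, at 2 h on the left and 6 h on the right. Nfkb2 holds 51.7 ± 0.305% in the 6 h Poly I:C then LPS libraries, its largest share.

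The other genes of the pathway were described in 5 lists, which share Tnfaip3 and Birc3. Of all tested entries, 3905 were higher and 3408 lower for Poly I:C before LPS at 2 h, 61.1% in all, and 2841 higher and 3099 lower at 6 h, 49.6%. Among 16 target genes such as Tnf, Il1b and Cxcl1, LPS alone gave 16 higher and 0 lower of 16 at 2 h (median log2 4.08), beside 9.47% of entries higher, and earlier Poly I:C before LPS gave 14 higher and 0 lower of 16 at 2 h (median 2.05) and 14 higher and 1 lower of 16 at 6 h (median 1.60). The most raised at 2 h was Ptgs2, the inducible cyclooxygenase (1039.8 against 8.08 FPKM, log2 difference 6.85 ± 0.35, adjusted p = 1.30e-07). Cxcl1, a neutrophil chemokine, was the most raised at 6 h (142 against 0.914 FPKM, log2 difference 6.23 ± 0.33, adjusted p = 5.09e-07). Of 5 genes known to need IkB-zeta, Poly I:C before LPS gave 2 higher and 1 lower of 5 at 2 h, a share near that of all tested entries, and 3 higher and 0 lower of 5 at 6 h (median 0.98). At 2 h Il6, encoding interleukin-6, rose (359 against 26.7 FPKM, log2 difference 3.74 ± 0.46, adjusted p = 5.96e-05), whereas Lcn2, encoding lipocalin-2, fell (3.36 against 8.40 FPKM, log2 difference -1.07 ± 0.25, adjusted p = 0.00404). At 6 h Il6 was again higher (384 against 31.7 FPKM, log2 difference 3.57 ± 0.46, adjusted p = 1.34e-04), and Lcn2 stood at 176 and 147 FPKM against 159 and 133, with overlapping groups.

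IkB kinases with their upstream kinases and adaptors were 7 higher and 0 lower of 13 for Poly I:C before LPS at 2 h (median 0.51) and 2 higher and 1 lower of 13 at 6 h (median 0.14), beside medians of all tested entries of 0.05 and -0.000194. Tbk1, a kinase that also activates IRF3, was the most raised at 2 h (105 against 32.2 FPKM, log2 difference 1.68 ± 0.11, adjusted p = 7.98e-07). Ikbkb, the catalytic IKK-beta subunit, was the most raised at 6 h (194 against 42.8 FPKM, log2 difference 2.15 ± 0.11, adjusted p = 3.19e-07). Ubiquitin ligases and deubiquitinases were 9 higher and 1 lower of 15 at 2 h and 7 higher and 1 lower of 15 at 6 h. Taken in either direction, these shares were close to those of all tested entries, and the kinases lay below them at both times. In higher calls alone, all tested entries had 3905 of 11977 at 2 h and 2841 at 6 h. By that measure the ubiquitin genes lay above them at both times, and the kinases above at 2 h and below at 6 h. The deubiquitinase gene Tnfaip3, encoding the inhibitor A20, was raised at 6 h (344 against 109 FPKM, log2 difference 1.66 ± 0.42, adjusted p = 0.00786). Other proteins that bind IkB or NF-kB were 6 higher and 4 lower of 16 at 2 h, near the share of all tested entries, and 7 higher and 6 lower of 16 at 6 h, above it. Nfkbib, which encodes IkB-beta and is not among the 10 members, rose at 6 h (268 against 103 FPKM, log2 difference 1.37 ± 0.17, adjusted p = 9.55e-05).

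Genes most like each member across the 14 libraries were found among 8561 other entries, by Pearson's r of log2(FPKM + 1). Libraries of a group share stimulus and time, so r is a description of shared pattern only. Rel was most like Trim13 (0.989) and Dyrk2 (0.987). Rela was nearest to Ciapin1 (0.972) and Gem (0.966). For Relb the nearest were Tjap1 (0.977) and Gpr132 (0.965). Nfkb1 lay nearest Ehd1 (0.982) and Tes (0.977), and Nfkb2 nearest Malt1 (0.989) and Sh3bp4 (0.985). Bcl3 had the lowest leading r of the 10 members, with Plagl2 (0.962) and Zbtb5 (0.958). Nfkbia was nearest to Lcp2 (0.985) and Tnfaip3 (0.980), the A20 gene. Nfkbie was nearest to Csrnp1 (0.978) and 4933416M07Rik (0.976), Nfkbid to Dusp5 (0.966) and Plaur (0.954), and Nfkbiz to Lcp2 (0.983) and Pde4b (0.981).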

How the data were processed

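Polyadenylated RNA was sequenced in paired 76-base reads from a stranded kit, per the labels' protocols. The submitters' processing notes name TopHat2, Cufflinks and Cuffnorm and build mm9, and versions, options and strand setting are not given in the sources used here. The deposited table gives FPKM per entry, made by the authors with Cuffnorm. GENCODE genes of GRCm38 overlapped 33796 of the 33853 entries that name 1 of them, with equal ends in 13336, so GRCm38 coordinates are printed.

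Libraries were grouped by their labels. Entries were tested where named and at 1 FPKM or more in 2 or more libraries, which left 11977 of 39721 and kept all 10 members. log2(FPKM + 1) was fitted with limma 3.58.1 (R 4.3.3), with 1 mean per group over all 14 libraries, an intensity trend, 6 residual degrees of freedom, 2-sided tests and Benjamini-Hochberg adjustment over all tested entries in each of 15 comparisons, of which 6 h against 2 h in PBS then PBS was added after the data were seen. The pseudocount makes differences of low genes smaller. The fit assumes that the lone control library varies like the other groups. The code was tested on simulated data made with that same assumption, which was itself not tested. Tables and figures used Python 3.11.15, numpy 2.4.6, pandas 2.3.3 and matplotlib 3.10.9.

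All members were named in each comparison. From the pathway lists, up to 3 called genes per list and comparison with the largest difference and a mean of at least 5 FPKM could be named, and for likeness the 2 entries with the highest r. The members and lists were chosen with earlier results of these data known. Like-numbered replicates deviated together at r = -0.19 to 0.078 over 15 pairs of groups, so no pairing by number was seen. A weak shared effect of mouse or culture could be missed by such a check. Alternatives were: no filter, a pseudocount of 0.1, no intensity trend, scaling by median of ratios, libraries of 1 time alone, both controls as 1 group, all entries of a member summed, a replicate block, and leaving out each replicate. Exact permutation of 2 against 2 libraries cannot reach the threshold and was not used.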

Additional observations from a re-analysis of the deposited data

Results flagged for a closer look

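Of the 10 members, 7 results differed between conditions by a test of the difference itself, with limma and adjustment over all tested entries. The share of all tested entries that passed in either direction was 4.29% for the interaction at 2 h (1 of 10 members), 29.4% for that at 6 h (3 of 10) and 44.4% for the change of the Poly I:C effect between times (3 of 10), shares close to or above the members' own in the last 2 tests. The LPS response at 2 h differed between cells given Poly I:C and cells given PBS first for Bcl3 (-2.28 ± 0.36, adjusted p = 0.00642), with the response smaller after Poly I:C. At 6 h the LPS response was larger after Poly I:C for Nfkb1 (0.87 ± 0.19, adjusted p = 0.00627), Nfkb2 (1.46 ± 0.28, adjusted p = 0.00361) and Nfkbie (1.59 ± 0.31, adjusted p = 0.00331). The effect of earlier Poly I:C on levels after LPS differed between 6 h and 2 h for Relb (0.80 ± 0.27, adjusted p = 0.0350), Bcl3 (1.07 ± 0.32, adjusted p = 0.0224) and Nfkbiz (-1.26 ± 0.45, adjusted p = 0.0454). From 2 h to 6 h that effect went from 0.53 to 1.34 for Relb and from 2.11 to 0.85 for Nfkbiz. For Bcl3 it went from -1.11 to near 0 (-0.04). The Bcl3 call for the interaction at 2 h was lost when the 2 h libraries were fitted alone. All 3 calls for the change of the Poly I:C effect were lost with no filter on low values. No group held enough libraries to test for an outlying one.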

How the results depend on the processing

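Absolute depth is unknown, so no counting error can be given, and differences from PBS then PBS rest on 1 control library. Counts of called members stayed within 1.5 times the main count in all 15 comparisons with a pseudocount of 0.1 or summed entries, and with median-of-ratios scaling or no intensity trend in all but 6 h against 2 h in PBS then PBS, where 0 members were called instead of 1 (by limma). With no filter, 2 members were called for Poly I:C alone at 6 h and 0 for the change of the Poly I:C effect between times (by limma). For the interaction at 2 h, 0 members were called from the 2 h libraries alone and 2 with both controls as 1 group, and at 6 h 5 with both controls as 1 group. The cause was not tested. With each replicate left out, counts ranged from 0 to 2 for Poly I:C alone at 6 h, 1 to 2 for the interaction at 2 h, 4 to 5 for 6 h against 2 h after Poly I:C then LPS, and 0 to 6 for the change of the Poly I:C effect between times.

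With both controls as 1 group 3 calls besides that of Nfkb1 were lost (Rela at 6 h for LPS and for Poly I:C alone, Relb at 6 h for Poly I:C alone) and 4 gained. Directions reversed for uncalled values with a pseudocount of 0.1 (Rela interaction at 2 h -0.0061, Bcl3 interaction at 6 h 0.0025) and with median-of-ratios scaling (Bcl3 interaction at 6 h 0.046). With both controls as 1 group they reversed for Nfkb1 (0.0040, called in the main comparison) and Nfkbid (0.085) after Poly I:C alone at 2 h, Nfkb2 after Poly I:C alone at 6 h (-0.088), the 2 h interaction of Rela (-0.25) and Nfkb1 (-0.031), and the 6 h interaction of Bcl3 (0.67). A replicate block, fitted for the 8 comparisons without PBS then PBS, left each count within 1.5 times and changed 1 of 80 member calls. That was Nfkbiz for Poly I:C before LPS at 6 h (0.85, adjusted p = 0.0524 in limma). Only the number is known to be shared by samples of a block. In leave-one-out fits 476 of 560 member results kept direction and call, 55 lost a call, 9 gained one and 20 reversed, none of these called in the main comparison. Their log2 ranges were, for Poly I:C before LPS at 2 h Nfkb1 -0.12 to 0.062, for the interaction at 2 h Rela -0.13 to 0.13, Nfkbiz -0.66 to 0.56, for Poly I:C alone at 2 h Nfkbid -0.95 to 0.40. Further ranges were, for the change of the Poly I:C effect Rela -0.0026 to 0.29, for Poly I:C before LPS at 6 h Bcl3 -0.22 to 0.13, Nfkbid -0.33 to 0.17, for the interaction at 6 h Bcl3 -0.18 to 0.17, Nfkbia -0.23 to 0.43, for Poly I:C alone at 6 h Nfkb2 -0.0090 to 0.38, Bcl3 -0.12 to 0.040, Nfkbie -0.044 to 0.16.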
